A study of Mus musculus with 8 samples.

Results

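Potassium channel genes were examined in preSC cells, which are mouse lung neuroendocrine cells at a precancerous stage, grown in culture. They were taken as every gene whose symbol begins with Kcn, which gave 95 of the 23284 genes counted. RNA had been sequenced from 4 libraries of a polyclonal population that received a guide RNA against Max (Max KO) and from 4 libraries of one that received a control guide. Both were selected with puromycin, expanded and left untreated. Both derive from mice of mixed 129/SvJ and C57BL/6 strain that carry a Chga-GFP reporter and conditional (lox) alleles of Rb, p53 and p130, so these alleles are shared by Max KO and control. MAX is the partner through which MYC proteins, and also the MNT, MGA and MXD proteins, bind DNA. Because the populations were not cloned, they can hold cells with different edits at Max or with none.

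Potassium channels let potassium leave the cell along its gradient and so set the resting membrane potential and end electrical activity. Voltage-gated channels open when the membrane depolarises. Inward rectifiers and two-pore channels pass current near the resting potential, and calcium-activated channels couple the membrane to intracellular calcium. Auxiliary subunits alter the gating or the surface level of the pore-forming subunits. Neuroendocrine cells of the lung and other endocrine cells are electrically excitable, and their potassium channels control the depolarisation that precedes hormone release. By symbol, the 95 genes comprised 40 voltage-gated, 15 inward rectifier, 14 two-pore and 8 calcium-activated pore-forming genes (the last with the sodium-activated Kcnt genes and with Kcnu1), 17 auxiliary genes, and Kcnq1ot1, an RNA antisense to Kcnq1.

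The libraries held 13711278 to 19804949 reads in genes. Levels are in CPM, read counts divided by a library size corrected for composition, and 1 read stood for 0.0503 to 0.0731 CPM. A gene with no read could have had up to 0.151 to 0.219 CPM (3 counts), a limit that covers counting error only. Max mRNA, the check of the labels, was at 42.2, 42.3, 59.1 and 68.0 CPM in Max KO libraries 1 to 4 and at 65.4, 70.1, 75.1 and 61.9 CPM in controls 1 to 4. The groups overlapped, and the difference did not pass the threshold (adjusted p = 0.0955, edgeR), although it did without Max KO library 4 (adjusted p = 0.0228). Small Cas9 edits need not lower the transcript, so this is a weak check. All 18 neuroendocrine and epithelial markers examined were above the count filter. Of these, 2 rose (Cdh1 and Uchl1) and 4 fell (Chgb, Scg2, Scg5 and Resp18) at an adjusted p under 0.05 in edgeR. That is 33.3%, against 23.1% of all tested genes. Calca was not called, and stood at 1978 and 1781 CPM in controls 1 and 2 and at 398 and 467 CPM in controls 3 and 4. In the Max KO libraries Calca was at 523 to 589 CPM. Lists of markers of other cell types held some genes with no reads and some with many. Of 6 endothelial markers, 2 were tested: Vwf was at 256 to 700 CPM and rose in Max KO, Pecam1 was at most 1.10 CPM, and Emcn had no reads (summed level 595 to 701 CPM in Max KO and 258 to 422 CPM in the control). Of 6 glial markers, Mbp was at 137 to 200 CPM and rose (0.30), and Gfap had no reads (sum 183 to 204 and 141 to 178 CPM). Of 8 fibroblast markers, 2 were tested: Dcn was at 21.3 to 65.0 CPM and rose, Pdgfra was at most 2.27 CPM and fell (-2.37), and Lum had no reads (sum 49.3 to 65.7 and 25.2 to 45.1 CPM). Below the filter, Col1a1 and Thy1 of the same list were lower in every Max KO library. The blood, muscle and other lung epithelium lists summed to at most 10.2 CPM in a library, with 0 of their 7 tested genes called and Hba-a1, Myog, Scgb3a2 and Krt5 at 0. The part of these markers in the results below was not tested. Controls 3 and 4 stood apart from controls 1 and 2 in Calca and in the share of reads outside annotated exons. That share was 23.3% and 23.4% in controls 3 and 4, against 18.5% and 18.6% in controls 1 and 2 and 20.5% to 21.5% in the Max KO libraries. The labels give no batch that explains this, and values against each pair of controls are given where they change a result. Not every gene split the controls in this way. Kcnn3, for example, was at 8.35, 9.61, 9.50 and 18.6 CPM in controls 1 to 4, so a fit against controls 3 and 4 can mix unlike libraries. The labels also do not say that libraries of a group were separate cultures, so the spread that the p-values rest on is that of libraries and can be technical only.

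Regulatory sequence upstream of the genes is shown first, because MAX-containing dimers are known to bind the E-box CACGTG. Kcnj1, Kcnk16 and Kcnd3, which are among the genes with the largest changes, also differ in the base composition of this stretch. RefSeq (build GRCm38.p6, while the counts were made on mm9) gave windows for 70 of the 95 genes, and the 250 bases before each start site were read. CACGTG, which reads the same on both strands, was present in at least 1 window of 5 of these 70 genes (7.14%), against 6.86% of 27025 genes of all kinds. Among the 38 of the 56 tested potassium channel genes that had a window, the motif was found only in Kcnh4, and in none of the 11 matched genes that rose or fell. The Kcnh4 window (chr11:100759779-100760028, minus strand) holds it, in capitals, with its first base at position -87 from the start site:
Kcnh4: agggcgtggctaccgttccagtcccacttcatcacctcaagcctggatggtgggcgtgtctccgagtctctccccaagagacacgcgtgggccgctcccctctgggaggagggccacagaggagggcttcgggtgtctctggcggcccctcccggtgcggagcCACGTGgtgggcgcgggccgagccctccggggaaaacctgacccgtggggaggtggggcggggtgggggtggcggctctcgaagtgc
A match is a description of these letters and not a binding site. The absence of a match from the called genes says little either. Windows covered only 8 of the 11 genes that rose and 3 of the 8 that fell, and at a share of 6.86% so few genes can hold none. Bases outside the windows were not read. In the following windows the dinucleotide CG is in capitals instead. Kcnj1 (chr9:32393735-32393984, plus strand) and Kcnk16 (chr14:20269270-20269519, minus strand), the genes with the largest rises, hold 2 and 0 of them, and Kcnd3 (chr3:105451640-105451889, plus strand), the gene with the largest fall, holds 18:
Kcnj1: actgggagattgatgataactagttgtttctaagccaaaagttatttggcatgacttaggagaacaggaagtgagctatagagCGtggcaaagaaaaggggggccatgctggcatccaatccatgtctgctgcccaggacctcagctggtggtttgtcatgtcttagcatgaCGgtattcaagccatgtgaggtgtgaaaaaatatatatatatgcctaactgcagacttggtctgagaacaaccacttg
Kcnk16: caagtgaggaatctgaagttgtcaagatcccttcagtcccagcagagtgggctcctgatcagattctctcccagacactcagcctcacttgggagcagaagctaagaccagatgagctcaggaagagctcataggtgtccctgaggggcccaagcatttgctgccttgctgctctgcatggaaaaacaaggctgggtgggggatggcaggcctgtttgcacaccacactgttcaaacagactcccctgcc
Kcnd3: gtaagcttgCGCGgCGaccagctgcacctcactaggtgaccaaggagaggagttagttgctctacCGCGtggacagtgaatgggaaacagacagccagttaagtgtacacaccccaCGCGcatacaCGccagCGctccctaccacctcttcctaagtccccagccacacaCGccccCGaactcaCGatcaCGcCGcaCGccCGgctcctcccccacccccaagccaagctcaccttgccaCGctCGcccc
Windows with 2 or fewer CG are common: they make up 29.0% of 32851 windows of all genes and 17.5% of 57 windows of the tested potassium channel genes. Of 9 windows of genes that rose, 3 were of this kind, and of 4 windows of genes that fell, 0 were. The medians went the other way, with 12 CG (0 to 21) in the windows of genes that rose and 9 (8 to 18) in those of genes that fell. Over all windows the median was 6. The windows printed above thus do not describe the rises or the falls in general. The genes to look at were chosen with their changes known, so these counts carry no test.

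Of the 95 genes, 56 passed the filter on low counts and were tested, 36 had reads but too few, and Kcne1, Kcne1l and Kcng3 had none. In edgeR's quasi-likelihood test, 11 of the 56 were higher and 8 were lower in Max KO at an adjusted p under 0.05. That is 33.9% of the tested potassium channel genes, against 23.1% of all 13358 tested genes. By direction the shares were 19.6% higher and 14.3% lower, against 10.9% and 12.2% of all tested genes. The groups did not overlap for 17 of the 56 (30.4%, against 26.4% of all tested genes). Called changes of at least 2-fold were made by 4 of them (7.14%, against 4.90% of all tested genes): the rises of Kcnj1 and Kcnk16 (rises of this size made up 1.16% of all tested genes) and the falls of Kcnd3 and Kcnmb2 (3.74%). In bulk RNA, fewer cells that express a gene and less of its RNA per cell cannot be told apart. The median log2 fold change was 0.08 for the potassium channel genes and -0.0036 for all tested genes. The counts depended on the controls. Against controls 1 and 2 alone, 21 of 57 tested potassium channel genes rose and 11 fell, where 22.0% and 22.6% of all tested genes did. That pair was chosen after the data were seen, and its fit leaves out the spread between the pairs of controls. Small p-values from it, given below for single genes, are therefore no further support for a change. Against controls 3 and 4 alone, 9 of 57 rose and 10 fell, where 9.39% and 11.3% of all tested genes did. Without Max KO library 2, 9 of 57 rose and 4 fell, where 7.12% and 8.42% of all tested genes did.

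The counts by class stand beside 10.9% higher and 12.2% lower over all tested genes. Of 28 tested voltage-gated genes, 6 rose and 3 fell (median log2 fold change -0.09). Of 5 inward rectifier genes, 1 rose and 0 fell (median 0.16). Of 7 two-pore genes, 3 rose and 1 fell (median 0.32), and 6 of the 7 had a positive fold change, as did 6590 of the 13358 genes. Of 5 calcium-activated genes, 0 rose and 2 fell (median 0.03). Of 10 auxiliary genes, 1 rose and 2 fell (median -0.06). No difference between classes was tested, and each class holds few genes. The two-pore median was 0.25 to 0.38 in the fits that each left out 1 library. Those of the voltage-gated (-0.16 to 0.10), inward rectifier (-0.05 to 0.36) and calcium-activated genes (-0.11 to 0.16) took either sign.

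**Figure D1:**
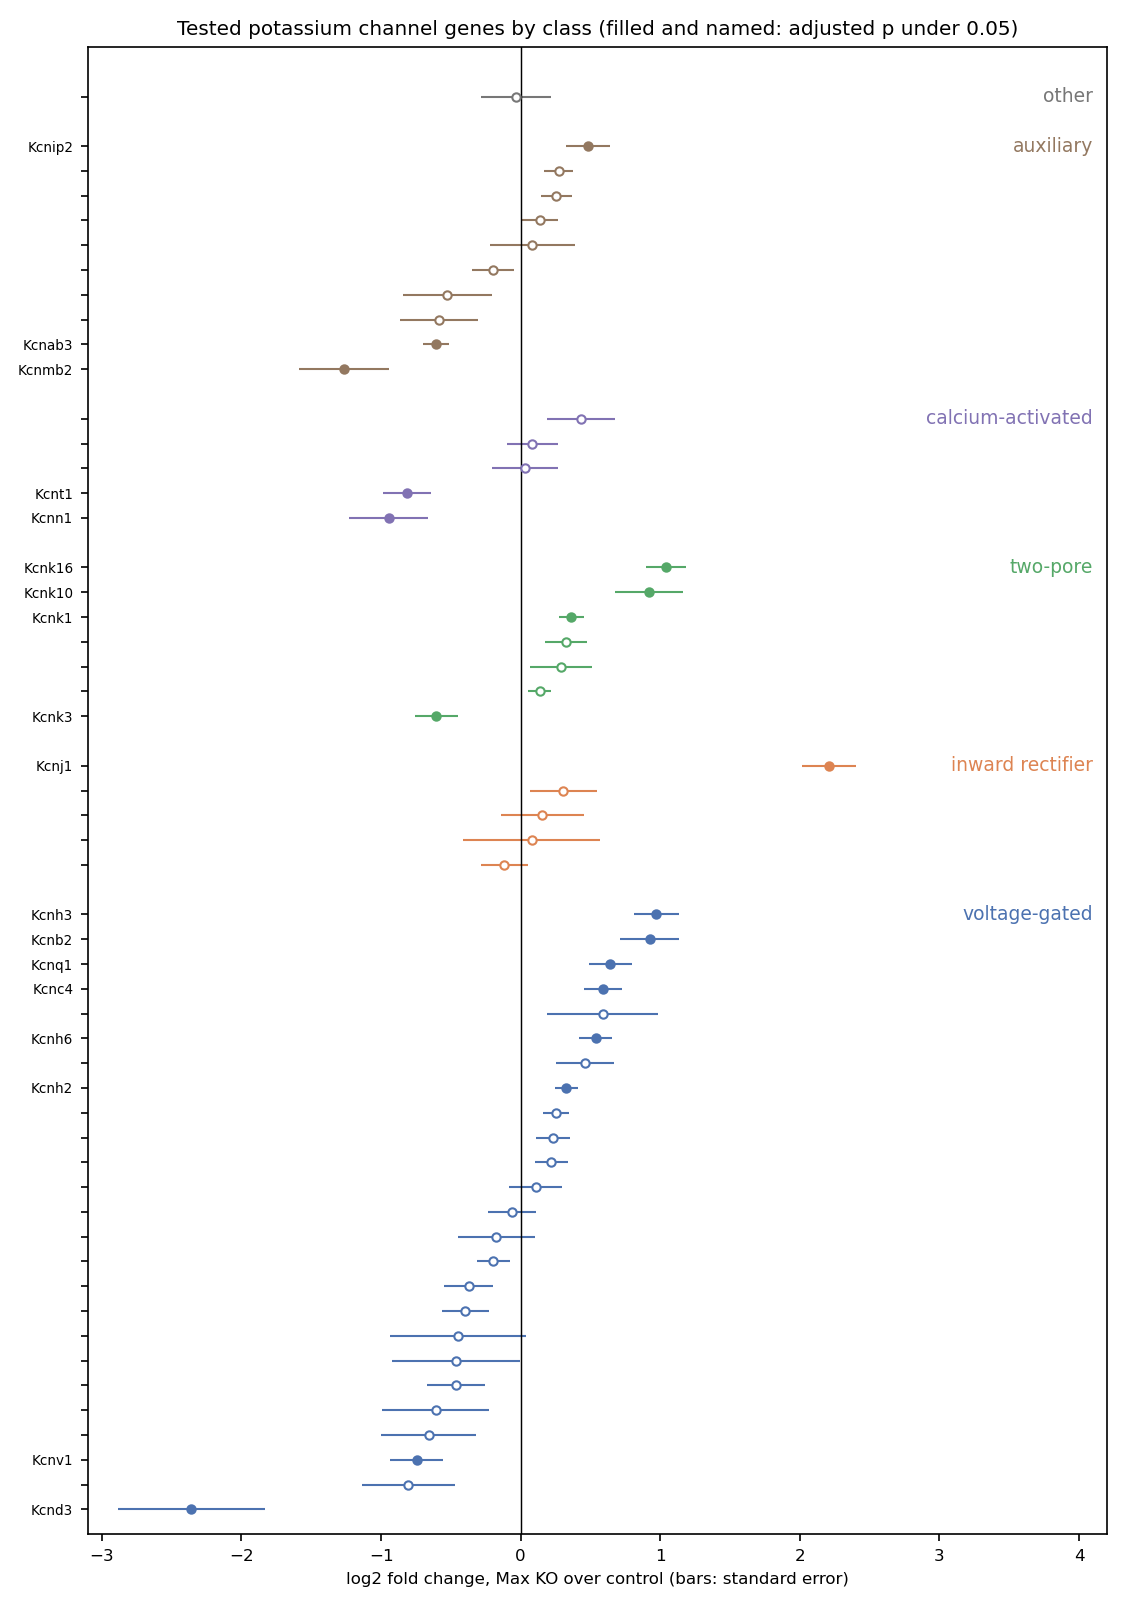
Log2 fold change (Max KO over control) with its standard error for 53 of the 56 tested potassium channel genes, sorted within each class, with filled, named points for an adjusted p under 0.05 and open points for the rest. Kcnj1 at 2.21 and Kcnd3 at -2.36 lie farthest from 0, and 6 of the 7 two-pore genes lie above 0.

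Summed over its members, each class had a total level in every library. The inward rectifier genes summed to 38.0, 37.7, 41.0 and 39.3 CPM in Max KO libraries 1 to 4 and to 15.7, 21.1, 15.7 and 19.2 CPM in controls 1 to 4. The groups lay apart, and 55.9% of this class's total over all libraries came from Kcnj1 alone. The two-pore genes summed to 305, 282, 292 and 288 CPM in Max KO and to 279, 256, 230 and 261 CPM in the controls. Here too every Max KO library was above every control. Kcnk1 made up 41.4% of this total, with means of 128 and 99.3 CPM where those of the class were 292 and 257 CPM (Max KO and control). The calcium-activated genes summed to 43.1, 52.9, 49.8 and 54.6 CPM in Max KO and to 58.4, 57.3, 78.7 and 94.2 CPM in the controls. They lay lower in every Max KO library, and Kcnt1 made up 67.2% of the total. The class means were 50.1 ± 5.06 and 72.2 ± 17.7 CPM (Max KO and control, SD, n = 4 each). Those of the sodium-activated Kcnt1 were 29.8 ± 5.38 and 52.3 ± 12.7 CPM. The gap in the total was thus about that of Kcnt1, and does not describe the class without it. The voltage-gated genes summed to 810 to 854 CPM in Max KO (832 ± 20.3, SD, n = 4) and to 646 to 873 CPM in the controls (726 ± 102, SD, n = 4), with the highest value in control 4, and the groups overlapped. A sum over chosen genes was not tested.

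**Figure D2:**
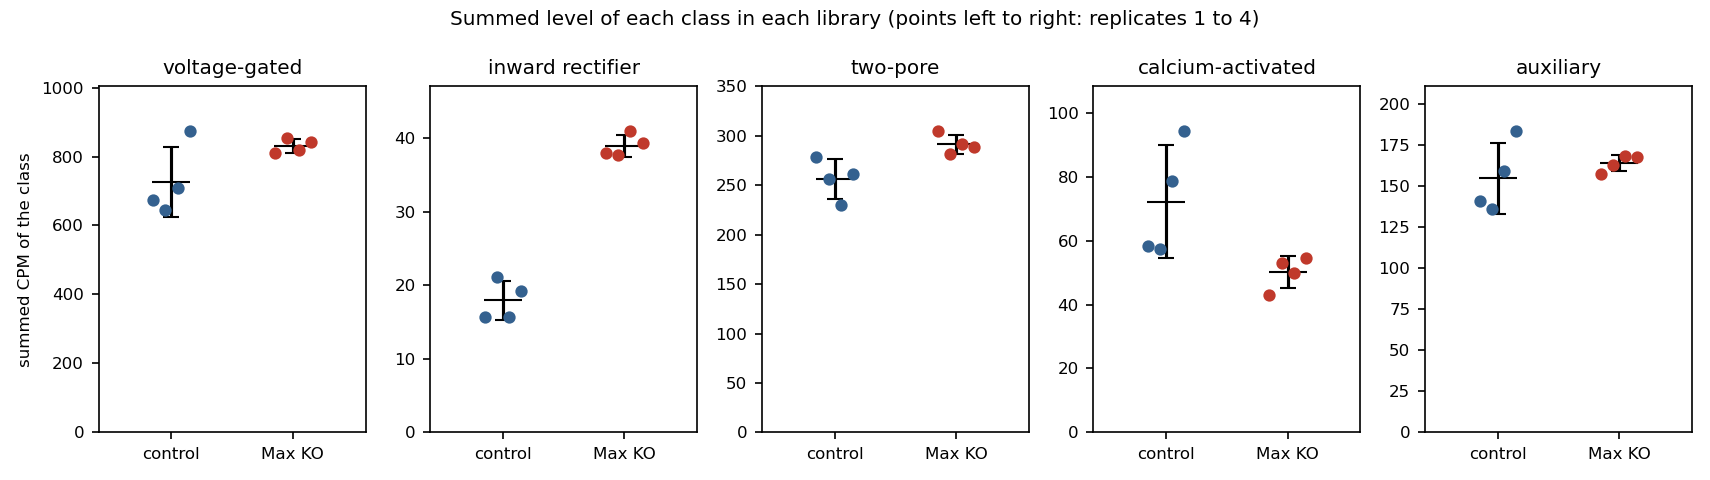
Summed CPM of the members of each class in each of the 4 control and 4 Max KO libraries, with the mean and SD as black marks and every axis starting at 0. Inward rectifier and two-pore totals are higher in every Max KO library, the calcium-activated total is lower in every one, and the voltage-gated and auxiliary totals overlap. The gap between the group means is about that of Kcnj1 for the inward rectifier class and that of Kcnt1 for the calcium-activated class.

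Levels of different genes were compared per kilobase of exon, with lengths from GENCODE M21 (GRCm38), which may differ from the annotation used for counting. In the controls the highest level was that of Kcnk1, a weakly conducting two-pore channel gene, at 44.4 ± 5.50 CPM per kilobase (SD, n = 4). Kcnh2, the hERG channel gene, followed at 24.3 ± 2.34, Kcnk2, a stretch- and lipid-sensitive two-pore channel gene, at 23.9 ± 1.04, and Kcnh6, a relative of Kcnh2, at 18.4 ± 2.85 CPM per kilobase (SD, n = 4 each). Next was Kcnip3, which encodes a calcium-binding partner of Shal channels, at 17.5 ± 2.72 CPM per kilobase. Neither Kcnh2 and Kcnk2 nor Kcnh6 and Kcnip3 differed by more than their SD. In Max KO, Kcnk1 was also the highest, at 57.2 ± 1.41 CPM per kilobase (SD, n = 4).

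Kcnj1 had the largest rise among the potassium channel genes. It encodes ROMK, the inward rectifier through which the kidney tubule secretes potassium. Its level was 27.1, 25.1, 27.2 and 25.4 CPM in Max KO libraries 1 to 4 and 3.62, 7.33, 4.46 and 7.23 CPM in controls 1 to 4. Every Max KO library was thus above every control, and the means of 26.2 ± 1.12 and 5.66 ± 1.90 CPM (SD, n = 4 each) differed 4.62-fold (log2 fold change 2.21, SE 0.19, adjusted p = 2.83e-05, edgeR). It was similar against controls 1 and 2 (2.28) and against controls 3 and 4 (2.13). The other tested inward rectifier genes did not pass the threshold. Kcnj6, a G-protein-gated channel gene, was at 4.92 ± 0.970 and 3.94 ± 1.20 CPM, and its partner Kcnj3 at 0.779 ± 0.164 and 0.773 ± 0.561 CPM (Max KO and control, SD, n = 4 each). Kcnj11, the pore of the ATP-sensitive channel that links glucose metabolism to insulin release, was at 3.60 ± 0.441 and 3.89 ± 0.463 CPM (SD, n = 4 each; adjusted p = 0.664, edgeR). Abcc8, which encodes the sulfonylurea receptor of the same channel, was at 3.86, 2.98, 2.91 and 3.51 CPM in Max KO and at 3.97, 5.05, 6.87 and 6.28 CPM in the controls. It fell by 0.73 on the log2 scale (adjusted p = 0.0201, edgeR), without overlap between groups, a call that ended without Max KO library 2 or 3 (adjusted p = 0.0663 and 0.0648) and against controls 1 and 2 alone (adjusted p = 0.0704).

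Among the two-pore channels, Kcnk16 rose most. Its product is an alkaline-activated channel best known from pancreatic islets. It was at 10.5, 14.1, 12.1 and 11.99 CPM in Max KO libraries 1 to 4 and at 6.44, 5.29, 4.90 and 6.90 CPM in controls 1 to 4. The groups lay apart by a wide margin (2.06-fold, log2 fold change 1.04, SE 0.14, adjusted p = 0.000448, edgeR), and the change was 1.04 against controls 1 and 2 and 1.02 against controls 3 and 4. Kcnk1 rose from 99.3 ± 12.3 to 128 ± 3.14 CPM (SD, n = 4 each; 0.36, adjusted p = 0.0124), without overlap between groups. Kcnk10, of the same mechanosensitive subfamily as Kcnk2, was at 2.76, 3.85, 3.05 and 3.70 CPM in Max KO and at 1.21, 1.44, 2.27 and 2.19 CPM in the controls. Its rise of 0.92 on the log2 scale (adjusted p = 0.0172) was 1.33 against controls 1 and 2, but 0.57 and past no threshold against controls 3 and 4 (adjusted p = 0.109), and the call ended without Max KO library 2 or 4 or control 2 (adjusted p up to 0.0612). Kcnk2 itself was at 110 ± 11.9 and 100 ± 4.36 CPM (Max KO and control, SD, n = 4 each; adjusted p = 0.276, edgeR).

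Kcnk3 went the other way. It encodes an acid-sensitive background channel that is known to contribute to oxygen sensing in chemoreceptor cells. It was at 26.8, 23.1, 27.3 and 25.2 CPM in Max KO libraries 1 to 4 and at 51.9, 41.1, 29.2 and 33.2 CPM in controls 1 to 4. The Max KO libraries were all below the lowest control, and the controls were widely spread. The fall was 0.61 on the log2 scale with all controls (a fold of 1.52, adjusted p = 0.0152, edgeR). It was larger against controls 1 and 2 (-0.87), while against controls 3 and 4 the difference was -0.30 and did not pass the threshold (adjusted p = 0.0723). The call also ended without Max KO library 2 (adjusted p = 0.0556).

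In the voltage-gated class, Kcnh3, Kcnh6 and Kcnh2 of the EAG family rose, 3 of its 8 genes where 10.9% of all tested genes rose, and none fell. This family includes the ERG channels, which help to repolarise the heart and to set the firing of endocrine cells. Kcnh3 was at 79.4, 76.7, 68.4 and 72.7 CPM in Max KO libraries 1 to 4 and at 31.7, 29.2, 37.4 and 53.1 CPM in controls 1 to 4. All Max KO values were above control 4, the highest control, and the rise was 0.97 on the log2 scale (SE 0.16, adjusted p = 0.00136, edgeR), 1.28 against controls 1 and 2 and 0.70 against controls 3 and 4. Kcnh6 rose from 62.7 ± 9.74 to 91.3 ± 10.8 CPM (0.54, adjusted p = 0.00646) and Kcnh2 from 113 ± 10.9 to 142 ± 8.02 CPM (0.33, adjusted p = 0.0138; SD, n = 4 each). For both, no Max KO library lay as low as the highest control. The other 5 members of the family, Kcnh1, Kcnh4, Kcnh5, Kcnh7 and Kcnh8, did not pass the threshold and had log2 fold changes of -0.46, -0.46, -0.40, -0.06 and 0.46.

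The delayed rectifier and fast-spiking families each had 1 gene that rose. Kcnb2, of the Shab family of delayed rectifiers, was at 29.1, 26.9, 26.5 and 17.5 CPM in Max KO libraries 1 to 4 and at 12.3, 9.31, 12.3 and 18.8 CPM in controls 1 to 4. Max KO library 4 and control 4 crossed, so that the groups overlapped, although the rise passed the threshold (0.92, SE 0.21, adjusted p = 0.00865, edgeR). Against controls 3 and 4 alone it was 0.67 (adjusted p = 0.0502). Amigo1, an adhesion protein that accompanies Shab channels, rose from 50.7 ± 4.69 to 63.8 ± 4.51 CPM (SD, n = 4 each; 0.33, adjusted p = 0.0175), a call that ended without Max KO library 2 (adjusted p = 0.0657) or control 1 (0.0511) and against controls 3 and 4 alone (0.0983). In the Shaw family, Kcnc4 rose from 11.8 ± 2.27 to 17.9 ± 1.04 CPM (SD, n = 4 each; 0.59, adjusted p = 0.00770), with all Max KO values above all controls. Kcnc1, the most abundant Shaw gene in CPM, was at 134 ± 9.54 and 115 ± 22.6 CPM (SD, n = 4 each; adjusted p = 0.216, edgeR) and passed the threshold only when control 4, its highest control at 147.6 CPM, was left out (0.36, adjusted p = 0.00825) or when controls 1 and 2 alone were used (0.42, adjusted p = 0.000174). With that pair, 22.0% of all tested genes rose.

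**Figure D3:**
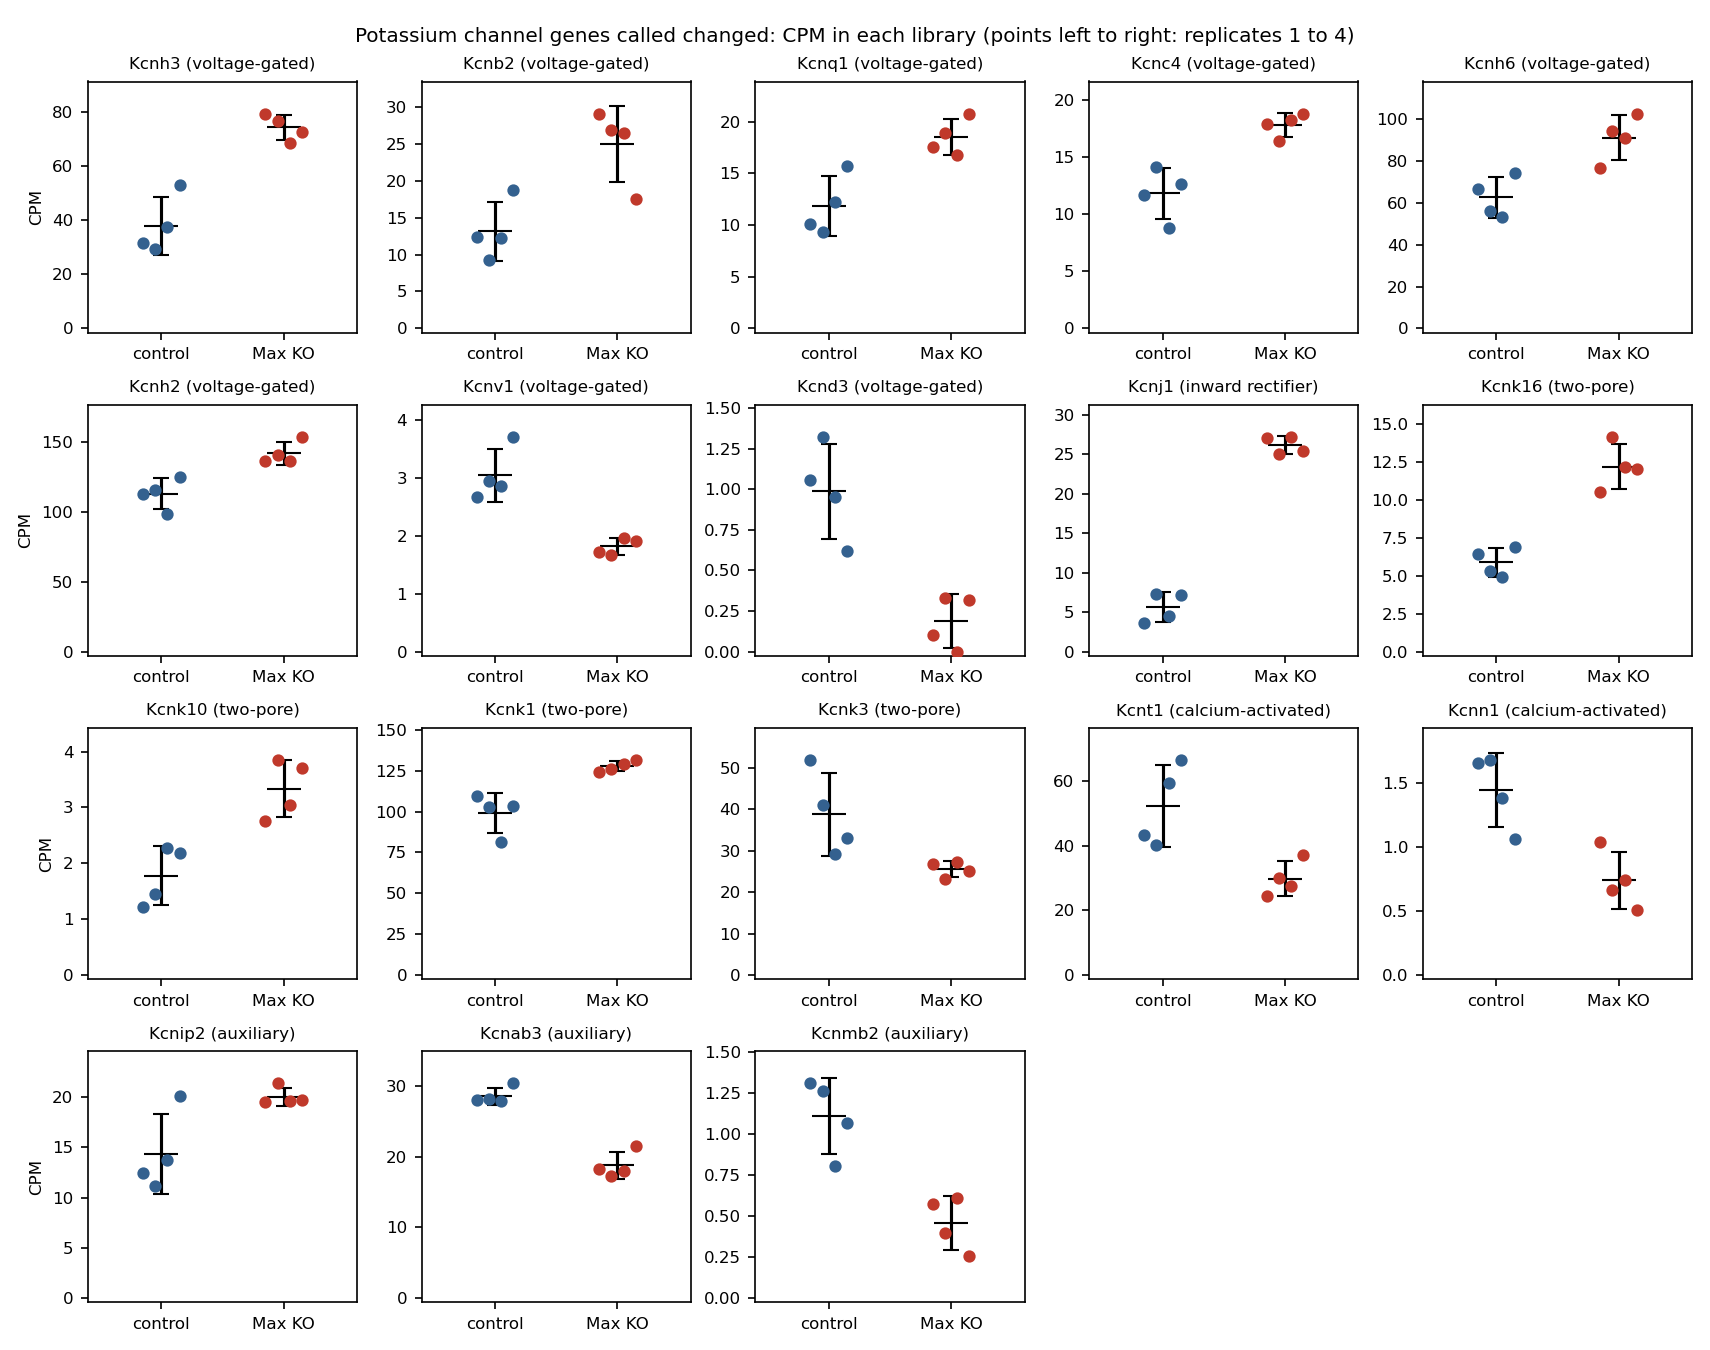
CPM of 18 of the 19 potassium channel genes that passed the threshold, in each of the 4 control (blue) and 4 Max KO (red) libraries, with mean and SD in black and replicates 1 to 4 from left to right. The groups lie apart for all but Kcnb2 and Kcnip2, and Kcnj1 lies at 25.1 to 27.2 CPM in Max KO and at 3.62 to 7.33 CPM in the control.

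KCNQ channels carry the slow potassium current that restrains repetitive firing, and Kcnq1 does so mainly in heart and epithelia. Kcnq1 was at 17.5, 18.9, 16.8 and 20.8 CPM in Max KO libraries 1 to 4 and at 10.1, 9.31, 12.3 and 15.8 CPM in controls 1 to 4, with all Max KO values above control 4. It rose by 0.64 on the log2 scale (adjusted p = 0.0111, edgeR), 0.93 against controls 1 and 2 and 0.38 against controls 3 and 4 (adjusted p = 0.0629). Kcnq3 and Kcnq5 did not pass the threshold (0.59 and -0.37).

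Kcnq1ot1, the antisense RNA that silences the imprinted domain around Kcnq1, was singled out after its values were seen. It was at 316, 237, 265 and 250 CPM in Max KO libraries 1 to 4 and at 168, 181, 382 and 363 CPM in controls 1 to 4. The Max KO libraries lay between the pairs of controls, and the difference over all libraries was -0.03 (adjusted p = 0.942, edgeR). It was 0.61 against controls 1 and 2 (adjusted p = 5.41e-05) and -0.49 against controls 3 and 4 (adjusted p = 0.00857), and thus of opposite sign. Of all tested genes, 22.0% rose against controls 1 and 2 and 11.3% fell against controls 3 and 4. The order of the groups was that of the share of reads outside annotated exons given above, whose part was not tested. Kcnq1 and Kcnq1ot1 share 121 exonic bases on opposite strands in GENCODE M21, and the counting is not stated to use strand, so reads from that stretch cannot be assigned to one of them.

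Falls in the voltage-gated class included genes of low level. Kcnd3, a Shal gene whose channel carries the transient outward current, had 2, 5, 0 and 5 reads in Max KO libraries 1 to 4 and 21, 22, 13 and 11 in controls 1 to 4. The levels were 0.104, 0.332, 0 and 0.319 CPM against 1.06, 1.32, 0.950 and 0.617 CPM, with no overlap. The fall was 2.36 on the log2 scale (SE 0.53, adjusted p = 0.00740, edgeR), and the library with no read could have held up to 0.203 CPM. Against controls 3 and 4 alone the gene was under the count filter. Of the partners of Shal channels, Dpp10 was at 11.1, 11.3, 14.9 and 11.7 CPM in Max KO and at 26.7, 22.0, 18.4 and 20.0 CPM in the controls, a fall without overlap (-0.84, adjusted p = 0.00124). Kcnip2 was at 19.5, 21.4, 19.6 and 19.7 CPM in Max KO and at 12.4, 11.1, 13.7 and 20.1 CPM in the controls. Its rise (0.48, adjusted p = 0.0472) overlapped control 4 and ended in 7 of the 8 fits that left out 1 library (adjusted p up to 0.135), all but that without control 4. It also ended under 3 other settings and against controls 3 and 4 (0.23, adjusted p = 0.297). Kcnd2, another Shal gene, was at 33.3 ± 2.04 and 28.3 ± 5.25 CPM and Kcnip3 at 68.1 ± 3.17 and 56.3 ± 8.77 CPM (Max KO and control, SD, n = 4 each). Neither passed the threshold (adjusted p = 0.206 and 0.0800, edgeR), except that Kcnip3 did without control 4 (0.37, adjusted p = 0.0108) and against controls 1 and 2 alone (0.45, adjusted p = 0.000149), where 22.0% of all tested genes rose. Kcnv1, which encodes a subunit that forms no channel alone and modifies Shab channels, fell from 3.04 ± 0.455 to 1.81 ± 0.147 CPM (SD, n = 4 each; -0.75, adjusted p = 0.0150) without overlap. That call ended without Max KO library 1 or 2 (adjusted p = 0.0504 and 0.0554).

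Shaker genes were nearly silent. Of the 8 genes of this family, Kcna2, Kcna6 and Kcna7 were tested and none passed the threshold. Their mean levels were 0.556 to 1.69 CPM in Max KO and 0.949 to 2.71 CPM in the control. Kcnab3, which encodes a cytoplasmic beta subunit that binds Shaker channels, nevertheless was at 18.3, 17.3, 17.9 and 21.5 CPM in Max KO and at 28.0, 28.1, 27.8 and 30.3 CPM in the controls. The groups lay apart and the fall was 0.61 on the log2 scale (SE 0.09, adjusted p = 0.000710, edgeR), -0.58 and -0.64 against the pairs of controls. Kcnab2, its relative, was at 31.4 ± 0.822 and 28.5 ± 5.88 CPM (SD, n = 4 each; adjusted p = 0.481, edgeR), but rose against controls 1 and 2 alone (0.39, adjusted p = 0.00112), as did 22.0% of all tested genes.

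Of the calcium-activated class and its sodium-activated relatives, Kcnt1 had the highest level and fell. Its product opens with intracellular sodium and contributes to the slow hyperpolarisation that follows firing. It was at 24.4, 30.2, 27.6 and 37.0 CPM in Max KO libraries 1 to 4 and at 43.3, 40.2, 59.4 and 66.5 CPM in controls 1 to 4. No Max KO library reached the lowest control, and the fall was 0.81 on the log2 scale (SE 0.17, adjusted p = 0.00627, edgeR), -0.49 against controls 1 and 2 and -1.09 against controls 3 and 4. Kcnn1, of the small-conductance channels that open with calcium through calmodulin, had 20, 10, 11 and 8 reads in Max KO and 33, 28, 19 and 19 in the controls. Its fall from 1.45 ± 0.289 to 0.740 ± 0.224 CPM (SD, n = 4 each; -0.95, adjusted p = 0.0318) ended in 5 of the 8 fits that left out 1 library (adjusted p up to 0.0934), namely those without Max KO library 2, 3 or 4 or control 1 or 2. It also ended against controls 3 and 4 alone (adjusted p = 0.197), without a count filter (0.0539) and in DESeq2 (0.0583). Kcnn2, Kcnn3 and Kcnu1 did not pass the threshold (0.43, 0.03 and 0.08), and Kcnn3 did so as a rise against controls 1 and 2 alone (0.39, adjusted p = 0.0361), where 22.0% of all tested genes rose. Kcnma1, the pore of the large-conductance channel, had 0 to 5 reads in a library. One of its beta subunit genes, Kcnmb2, fell from 1.11 ± 0.229 to 0.459 ± 0.164 CPM (SD, n = 4 each; -1.26, adjusted p = 0.0140) without overlap, but not against controls 3 and 4 alone (-1.03, adjusted p = 0.0939). Another, Kcnmb4, was at 9.58 ± 0.749 and 11.0 ± 2.32 CPM (SD, n = 4 each) and did not pass the threshold.

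**Figure D4:**
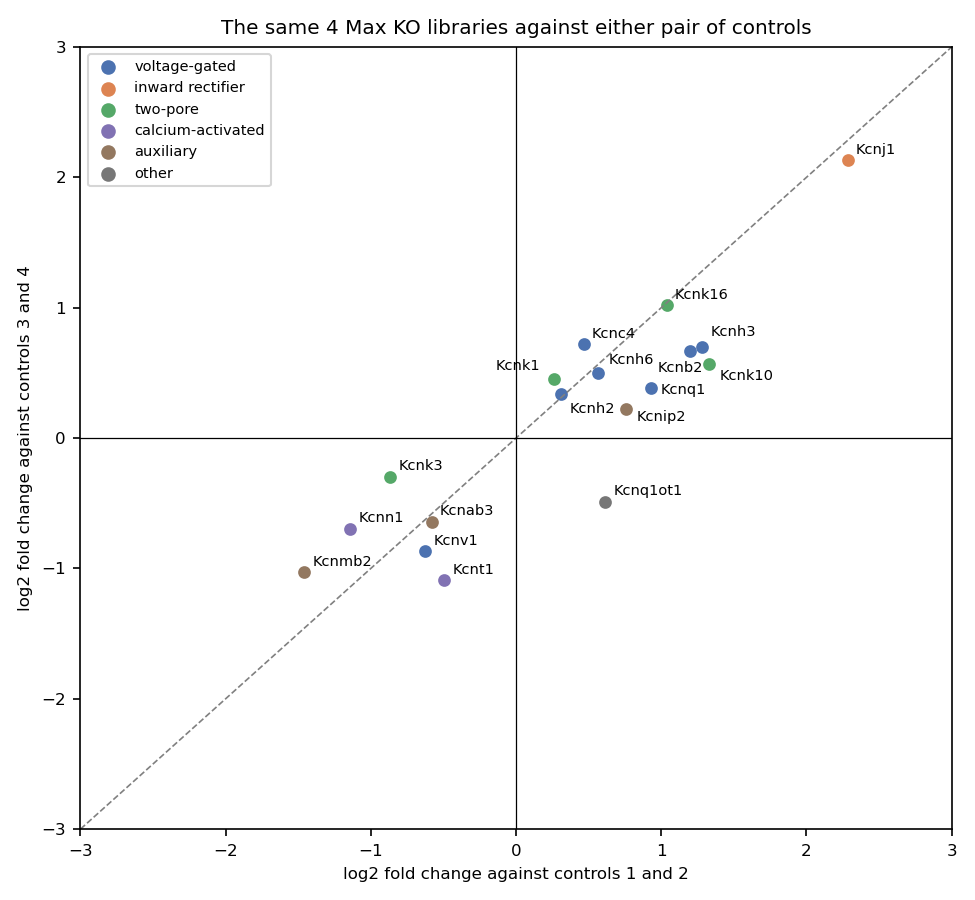
Log2 fold change of the 4 Max KO libraries against controls 1 and 2 (x axis) and against controls 3 and 4 (y axis) for 17 of the 19 potassium channel genes that passed the threshold (Kcnd3 has no value against controls 3 and 4) and for Kcnq1ot1, coloured by class, with the line of equality dashed. All 17 have the same sign on both axes, and Kcnq1ot1, at 0.61 and -0.49, does not.

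The 18 called genes that could be fitted against both pairs of controls had the same sign against each. The fits share the Max KO libraries, so this is no independent support. The 19 genes were picked by their calls and every setting reuses the same libraries, so a kept call is no independent support either. Of the 19 calls, 13 held in every other setting that gave a value. Among these, 10 also held in each fit against a pair of controls that gave a value. Those 10 were the rises of Kcnj1, Kcnk16, Kcnk1, Kcnh3, Kcnh6, Kcnh2 and Kcnc4 and the falls of Kcnt1, Kcnab3 and Kcnd3. For Kcnd3 a stricter count filter and the fit against controls 3 and 4 gave no value. Short antisense or overlapping genes share exonic bases with Kcnab3 (147), Kcnd3 (165), Kcnk1 (179), Kcnk3 (229) and Kcnn1 (132) in GENCODE M21, and without strand reads from those bases cannot be told apart.

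The 36 genes with reads that were not tested reached at most 13 reads or 0.804 CPM in a library. Of these, 29 had under 10 reads in every library. The other 7 were Kcna3, Kcna5, Kcnab1, Kcnj5, Kcnj9, Kcnk5 and Kcnk13, with means of 0.0159 to 0.619 CPM in Max KO and 0.216 to 0.598 CPM in the control. Kcna5 had 11 reads in control 1 and 0 to 3 in each other library. Inward rectifiers made up 10 of these 36 genes. When all genes with a read were fitted without a count filter, 1 of the 36 passed the threshold, as a fall of Kcna5 (-3.35, adjusted p = 0.0486, edgeR), and 3 had an unadjusted p under 0.05. These counts are given without the share of all genes in the same fit, so they are not read as a result about the 36.

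Genes that work with potassium channels were taken from lists. Of 7 tested partner subunit genes not named Kcn, 1 rose (Amigo1) and 2 fell (Dpp10 and Abcc8), that is 42.9% against 23.1% of all tested genes, a matter of 3 genes, and the median was -0.21. All 4 genes of the HCN channels, which pass sodium and potassium on hyperpolarisation, were tested. Hcn3 rose from 17.5 ± 4.30 to 25.5 ± 3.38 CPM (SD, n = 4 each; 0.55, adjusted p = 0.0325), with overlapping groups. Its call ended in 5 of the 8 fits without 1 library, namely without any 1 of Max KO libraries 1, 2 and 4 and controls 1 and 2 (adjusted p up to 0.0987), and against controls 3 and 4 (0.190). Hcn2 and Hcn4 did not pass the threshold (0.04 and 0.17).

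Of 16 tested genes of the sodium-potassium pump, its regulators and potassium cotransport, 3 rose and 6 fell, that is 56.2% against 23.1% of all tested genes, with a median of -0.09. The pump builds the potassium gradient that the channels use. Atp1b2, a beta subunit gene of the pump typical of neurons and glia, was at 9.65, 10.2, 11.3 and 11.2 CPM in Max KO libraries 1 to 4 and at 28.4, 27.3, 30.3 and 39.1 CPM in controls 1 to 4, a fall of 1.56 on the log2 scale (adjusted p = 1.89e-05, edgeR). The groups were far apart. Slc12a4, a potassium-chloride cotransporter gene, fell from 40.1 ± 3.03 to 18.5 ± 3.14 CPM (SD, n = 4 each; -1.12, adjusted p = 8.51e-05). Atp4a, of the proton-potassium pump, rose from 1.13 ± 0.289 to 2.15 ± 0.145 CPM (SD, n = 4 each; 0.91, adjusted p = 0.0136).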

How the data were processed

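RNA had been isolated with TRIZOL, and an NEB Ultra RNA kit was used on 500 ng of it, per the labels' protocols. The deposited files hold raw read counts per gene symbol. Per the submitters' processing notes, the authors used bcl2fastq 1.8.4, TopHat2 2.0.12 and HTSeq 0.6.1 with the mm9 genome. The annotation and the strand setting used for counting were not given in the sources used here. Rows that name no gene were left out of totals. Reads outside exons (18.5% to 23.4%) are a share of reads in genes, outside exons and ambiguous.

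Genes were filtered with filterByExpr (13358 kept), scaled with TMM and compared with edgeR 4.0.16 (R 4.3.3) by the quasi-likelihood F test with group as the only term. P-values were adjusted by Benjamini-Hochberg over all tested genes. Each standard error is the log2 fold change over the root of F. The procedure was tested on simulated counts. The genes and lists were chosen with earlier results of these data known. Named genes are those past the threshold of 0.05, the 3 of each class with the highest mean CPM, genes under the filter with at least 10 reads, and up to 4 of each partner list with the smallest p. Other named genes, such as the remaining members of a family, were named after their values were seen. Alternatives were RLE and upper-quartile scaling, library totals, DESeq2 1.42.0, voom (limma 3.58.1), no count filter, a filter that asks 4 libraries for 1 CPM, no robust estimation, a replicate block and leaving out each library. Fits with only controls 1 and 2 or 3 and 4 were added after the data were seen. Results for some genes are counted in the totals and not reported here by name.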

Additional observations from a re-analysis of the deposited data

Results flagged for a closer look

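Among 98 groups of 4 libraries (a named gene in Max KO or in control), 7 held 1 library far from the other 3, where chance gives about 1 in 20. In control 4, Kcnab3 was at 30.3 CPM (others 27.8 to 28.1) and Kcnn3 at 18.6 CPM (others 8.35 to 9.61). In Max KO library 2, Kcnip2 was at 21.4 CPM (others 19.5 to 19.7) and Amigo1 at 70.5 CPM (others 61.1 to 62.0). Kcnab2 was at 30.1 CPM in Max KO library 1 (others 31.7 to 31.9), and Slc12a4 at 35.6 CPM in control 1 (others 41.3 to 41.9). Kcna5 was at 0.0638 CPM in Max KO library 4, which is 1 read where the others had 0.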

How the results depend on the processing

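Leaving out 1 library in turn gave 9 to 16 potassium channel genes that rose and 4 to 8 that fell, the lowest number of falls without Max KO library 2, and 2102 to 3743 for all genes called (3084 with all libraries). Over the same fits the class medians of the log2 fold change were -0.16 to 0.10 for voltage-gated genes (0.10 without control 1), -0.05 to 0.36 for inward rectifiers, 0.25 to 0.38 for two-pore and -0.11 to 0.16 for calcium-activated genes. Without a count filter, which brings in genes of few reads, the inward rectifier median was -0.11 and the calcium-activated one -0.24. With the 1 CPM filter, which tests fewer genes, the voltage-gated median was 0.10. Against controls 1 and 2 alone, 21 potassium channel genes rose, all genes called numbered 6068, the calcium-activated median was 0.35 and Kcnq1ot1 was at 0.61, opposite in sign to -0.03. Against controls 3 and 4 alone, the medians were 0.14 (voltage-gated), 0.45 (inward rectifier) and -0.28 (calcium-activated). The cause was not tested. The 1 CPM filter gave no value for Kcnd3 and Kcnmb2. Same-numbered libraries of the groups did not deviate together (correlations of -0.20, -0.01, 0.00 and -0.11), and 0 of 4 Max KO libraries correlated best with the control of their own number, so the numbers were not used to pair them. With the replicate block, 11 potassium channel genes rose and 8 fell, the same 19 calls, while Abcc8 (-0.71) had an adjusted p of 0.05002 in edgeR. The 36 genes with reads under the filter had at most 13 in a library.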
